A study of Homo sapiens with 2 samples.

Results

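The Notch receptors, their ligands and the HES-type factors they control were followed in SW480, a human cell line established from a colorectal adenocarcinoma, with and without an introduced TFAP2E gene. The set holds 10 genes chosen by name: the receptors NOTCH1, NOTCH2 and NOTCH3, the ligands JAG1, JAG2, DLL1 and DLL4, the transcription factors HES1 and HES4, and ATOH1, a secretory lineage factor. They are 10 of the 18417 genes that the array's annotation names through a probe set of their own, and each had 1 such probe set. Expression was measured on 2 Affymetrix arrays, 1 per group. One group is SW480 carrying the TFAP2E coding sequence in the pTarget expression plasmid, and the other is SW480 carrying the plasmid without it. Both are stable transfectants kept in Geneticin, from which single clones were picked. How many clones went into each array is not stated, so that a difference between clones and an effect of TFAP2E cannot be told apart.

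Notch is a cell contact pathway. A ligand of the Jagged or Delta-like family on one cell binds a receptor on its neighbour, proteases release the receptor's intracellular part, and this part joins the DNA-binding protein RBPJ to switch on target genes, HES1 among them. HES factors are repressors. In the intestinal crypt HES1 holds down ATOH1, the factor that commits a cell to the goblet, Paneth or enteroendocrine fates, so that Notch activity keeps progenitors from the secretory lineage. TFAP2E encodes AP-2 epsilon, a DNA-binding transcription factor, and the comparison asks which transcripts differ when it is introduced.

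HES1 and HES4 are the transcriptional readout of the pathway in this set, and their promoters are shown because they alone of the 9 promoters found for the 10 genes hold the RBPJ core. The sequences are the 250 bases before the gene start, from RefSeq on GRCh38.p14, 5′ to 3′ on the strand of the gene. Capitals mark the RBPJ core TGGGAA and the AP-2 core GCCNNNGGC, each searched on both strands. HES1 lies on the plus strand at chr3:194135898-194136147, and HES4 on the minus strand at chr1:1000098-1000347.
HES1: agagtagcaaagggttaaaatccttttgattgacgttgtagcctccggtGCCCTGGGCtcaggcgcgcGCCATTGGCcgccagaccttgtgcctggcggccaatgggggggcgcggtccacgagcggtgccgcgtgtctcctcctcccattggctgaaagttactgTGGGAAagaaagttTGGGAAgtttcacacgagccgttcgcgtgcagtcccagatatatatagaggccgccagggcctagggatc
HES4: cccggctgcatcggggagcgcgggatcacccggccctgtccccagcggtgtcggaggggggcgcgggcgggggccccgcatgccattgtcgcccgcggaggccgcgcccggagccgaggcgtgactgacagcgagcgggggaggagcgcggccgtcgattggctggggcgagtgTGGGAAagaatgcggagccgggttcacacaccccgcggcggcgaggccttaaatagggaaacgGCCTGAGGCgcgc

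HES1 held 2 RBPJ cores, which begin 84 and 70 bases before the gene start and so lie 14 bases apart. HES4 held 1, beginning 76 bases before the start. The longest run that both stretches share is the 12 bases tgTGGGAAagaa, around an RBPJ core, which begins 86 bases before the start in HES1 and 78 before it in HES4. For AP-2, HES1 held cores that begin 201 and 182 bases before the start, and HES4 one that begins 13 bases before it. JAG2 held an AP-2 core 104 bases before the start (gcctggggc) and NOTCH2 one at 84 bases (gcccaaggc). NOTCH1, NOTCH3, JAG1, DLL4 and ATOH1 had no match to either core in their windows.

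These cores are common. In windows of 300 bases, which add the first 50 bases of the gene, 4 of the 9 promoters held the AP-2 core, against 23.2% of all 35116 RefSeq windows and 32.5% of the windows of measured genes. The RBPJ core stood in 2 of 9, against 24.0% of all windows. The box CACGNG, a class of site that HES and HEY repressors bind, stood in 7 of 9, against 30.5% of all windows and 40.5% of those of measured genes. HES1 and ATOH1 each held 4 of these boxes, and HES1 is known to repress its own promoter. CACGTG, which CACGNG and CANNTG include, stood in 0 of 9 (7.26% of all windows), and the general E-box CANNTG in 2 of 9 (68.7%), JAG2 and ATOH1. The shares are not matched for base composition. In the 250 bases before the start, GC content ran from 55.2% for ATOH1 to 81.6% for JAG2, and all but ATOH1 lay above the median of 58% for all promoters. Whether the counts differ from those of windows of like GC content was not tested. Such a match describes the letters in the window and does not show that a factor binds there.

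The introduced gene is checked first. The TFAP2E probe set read 6.81 on the array labelled as TFAP2E overexpression and 6.77 on the empty vector array, on the log2 scale, a difference of 0.04. The introduced gene thus left no mark on the values of this probe set. Where on the transcript this probe set lies could not be looked up here, so whether it can detect the introduced coding sequence is not known. All directions below rest on the labels. Values are log2 levels of RMA, a method that sets the arrays to a common distribution and summarises each probe set, and each difference is the value on the TFAP2E-labelled array minus that with the empty vector. A gene counted as measured when the higher of its values reached 5.55, the median of all probe sets, which holds for 11548 of the 18417 genes. No detection limit is implied by it. Over the measured genes the median difference was 0.04 and the standard deviation 0.219. With 1 array per group there is no test and no replicate error, and the number of arrays limits the precision. The only gauge of size is how far other genes of like level differ: for each gene, the range that holds the central 95% of the 500 measured genes nearest to it in mean level.

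No Notch gene differed beyond that gauge. Of the 10 genes 9 were measured, and ATOH1 was dim on both arrays. None of the 9 differed by 2-fold, where 0.199% of all measured genes did, and none by 1.5-fold, where 1.5% did. None lay outside the range of genes of like level, where 5.39% of all measured genes lay outside theirs. At these background shares a count of 0 among 9 genes is near the background. The differences ran from -0.21 for NOTCH1 to 0.05 for DLL1, with 6 genes lower and 3 higher on the TFAP2E-labelled array and a median of -0.09. Over all measured genes 39.5% were lower and 59.2% higher.

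**Figure D1:**
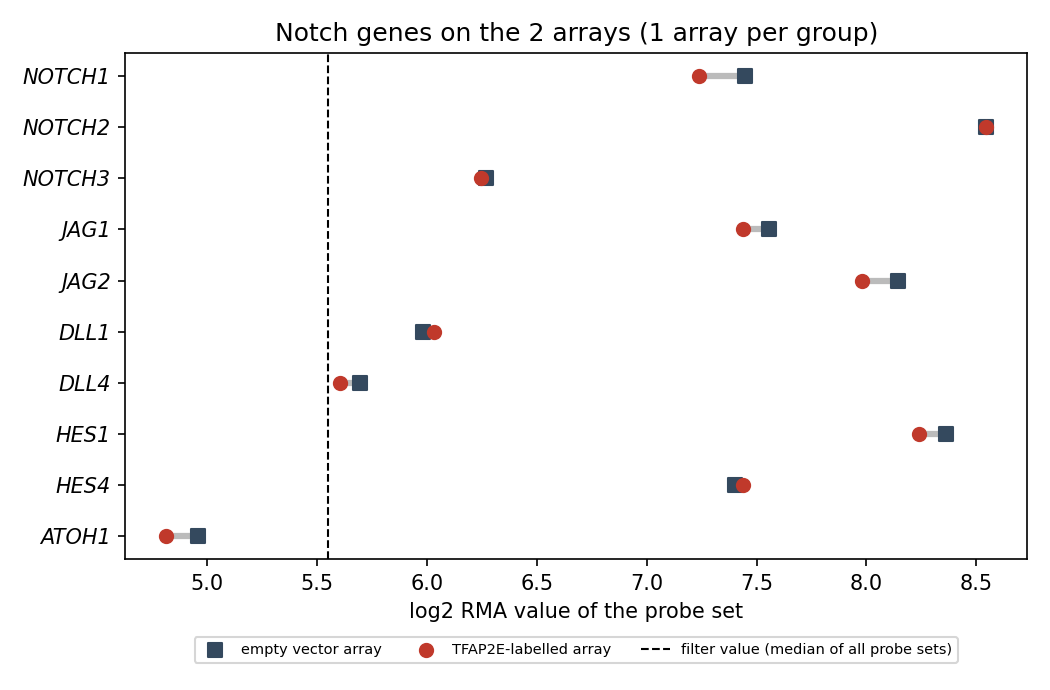
Log2 RMA value (horizontal axis) of the probe set of each of the 10 Notch genes on the TFAP2E-labelled array (circles) and the empty vector array (squares), 1 array per group, so there are no error bars. The pairs lie close together for each gene, ATOH1 alone lies left of the filter value of 5.55 (dashed line) on both arrays, and levels of different probe sets are not comparable with each other.

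Among the receptors, NOTCH1 showed the largest difference of the set in size. NOTCH1, a receptor active in the intestinal crypt, read 7.24 on the TFAP2E-labelled array against 7.45 with the empty vector. This is 1.16-fold lower, or -0.21 on the log2 scale, inside the range of -0.33 to 0.39 for genes of like level. Of all measured genes, 9.35% had a lower difference than NOTCH1. NOTCH2, the other main receptor of the crypt, read 8.55 on the first array and 8.55 on the second, a difference of 0.00. A further probe set, assigned to NOTCH2 together with its partial copies NOTCH2NLA and NOTCH2NLB, read 7.53 against 7.59 and is not counted here, because it cannot tell these genes apart. NOTCH3, best known from the muscle cells of blood vessels, read 6.25 against 6.27, a difference of -0.02. NOTCH2 and NOTCH3 thus read alike on both arrays, and the sign of each depended on the scaling.

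The Jagged ligands both read lower on the TFAP2E-labelled array, within the spread of other genes. JAG1, the ligand altered in Alagille syndrome and a gene that beta-catenin can induce in colorectal cancer, read 7.44 against 7.56. Its difference of -0.12 compares with a range of -0.39 to 0.42 for genes of like level. JAG2, the second Jagged ligand, read 7.98 against 8.14 and was 1.12-fold lower (-0.16, range -0.33 to 0.43). JAG1 and JAG2 were lower than 81.4% and 86.5% of all measured genes by their difference.

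The Delta-like ligands were close to the filter value and moved little. DLL1, which in the crypt is carried by early secretory cells, read 6.03 against 5.98 (difference 0.05, range -0.42 to 0.52). It had the highest difference of the 9 genes. DLL4, a ligand of crypt secretory cells and of sprouting vessels, read 5.60 against 5.70, a difference of -0.09 in a range of -0.44 to 0.51. DLL4 stood only 0.06 above the filter value with TFAP2E and 0.15 above it with the empty vector. The ligands therefore did not share a sign, with 3 of the 4 lower and DLL1 higher.

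Of the 2 HES genes, HES1 read lower on the TFAP2E-labelled array and HES4 read nearly alike on both. HES1, the repressor that serves as the usual readout of Notch activity, read 8.24 on the TFAP2E-labelled array against 8.36 with the empty vector. The difference of -0.12, or 1.09-fold lower, lay in a range of -0.35 to 0.48 for genes of like level. HES4, a human HES family member that is missing from the mouse genome, read 7.44 against 7.40, a difference of 0.04 in a range of -0.37 to 0.37. HES4 stood near the middle of all measured genes, with 48.4% below it, while 18.1% lay below HES1. Both promoters carry the RBPJ core in the shared run shown above, and neither gene left the spread of other genes. ATOH1, which HES1 represses, read 4.82 against 4.96 (difference -0.14). Relative to the filter value these levels are -0.73 and -0.59, and no direction is drawn for it.

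**Figure D2:**
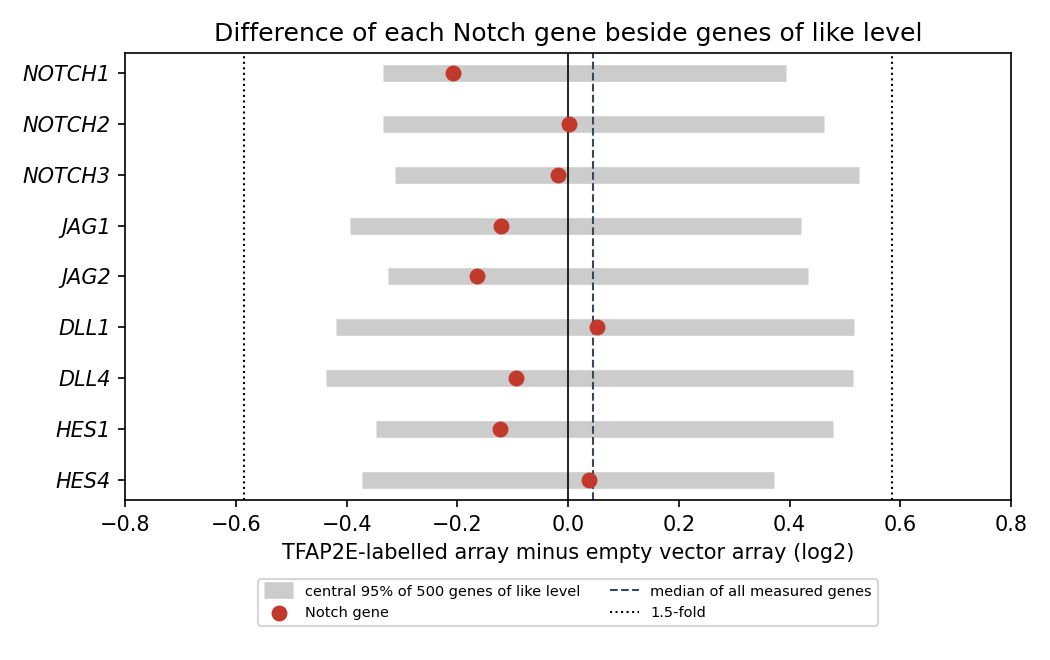
Log2 difference (horizontal axis, TFAP2E-labelled array minus empty vector array) of the 9 measured Notch genes as points, with grey bars for the central 95% of the 500 measured genes nearest in mean level. All 9 points lie within their bars and inside the dotted lines at 1.5-fold, and 8 of the 9 lie below the median of all measured genes (dashed line, 0.04).

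The genes around these 10 in the pathway were taken from 6 lists written by their role. Of their 81 genes, 74 were named by a probe set of their own and 58 were measured. Of the 58, 30 were higher and 27 lower, INSM1 read the same on both arrays, and the median was 0.01. None passed 1.5-fold, where 1.5% of all measured genes did. Outside the range of genes of like level lay 4 of the 58, or 6.90%, near the 5.39% of all measured genes. These 4 were FURIN, MAML2, TLE2 and TLE3, all lower on the TFAP2E-labelled array.

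In the list of receptor sugar transfer and cleavage, 8 of 11 measured genes were higher and 3 lower, with a median of 0.09. FURIN, the convertase that cuts the Notch receptor on its way to the surface, read 8.17 against 8.63 and was 1.37-fold lower (-0.46, range -0.35 to 0.46). NCSTN, the nicastrin subunit of gamma-secretase, which releases the intracellular part of the receptor, differed by -0.19. The other measured subunits had the opposite sign, with PSENEN at 0.20 and APH1A at 0.17 the highest of the list and PSEN2 at 0.17. PSEN2 and the sheddases ADAM10 (0.09) and ADAM17 (0.07), which make the cut before gamma-secretase, were picked with their values in view.

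The list of the nuclear complex and its corepressors spread most widely of the 6, with 8 of 18 measured genes higher, 10 lower and a median of -0.01. RBPJ itself, the DNA-binding protein of the pathway, read 8.95 against 8.83, a difference of 0.12. Its second probe set read 6.20 against 6.18, and RBPJ was chosen for naming because the pathway turns on it. MAML2, a Mastermind coactivator that bridges the receptor fragment and RBPJ to the acetyltransferases, read 7.44 against 7.96 and was 1.43-fold lower (-0.51, range -0.29 to 0.51). TLE2, a Groucho corepressor that HES factors recruit, read 5.74 against 6.26 and was 1.44-fold lower (-0.52, range -0.39 to 0.50). TLE3, a further Groucho corepressor, named because it lay outside its range, read 8.21 against 8.59 (-0.38, range -0.35 to 0.46). MAML3 (0.29) and the corepressor CTBP2 (0.18) had the highest differences. The second, dimmer probe set of CTBP2 read 6.216 against 6.221, a difference of -0.006. MAML2 and MAML3 thus had opposite signs, and MAML3 was dim on the empty vector array, at 5.46.

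**Figure D3:**
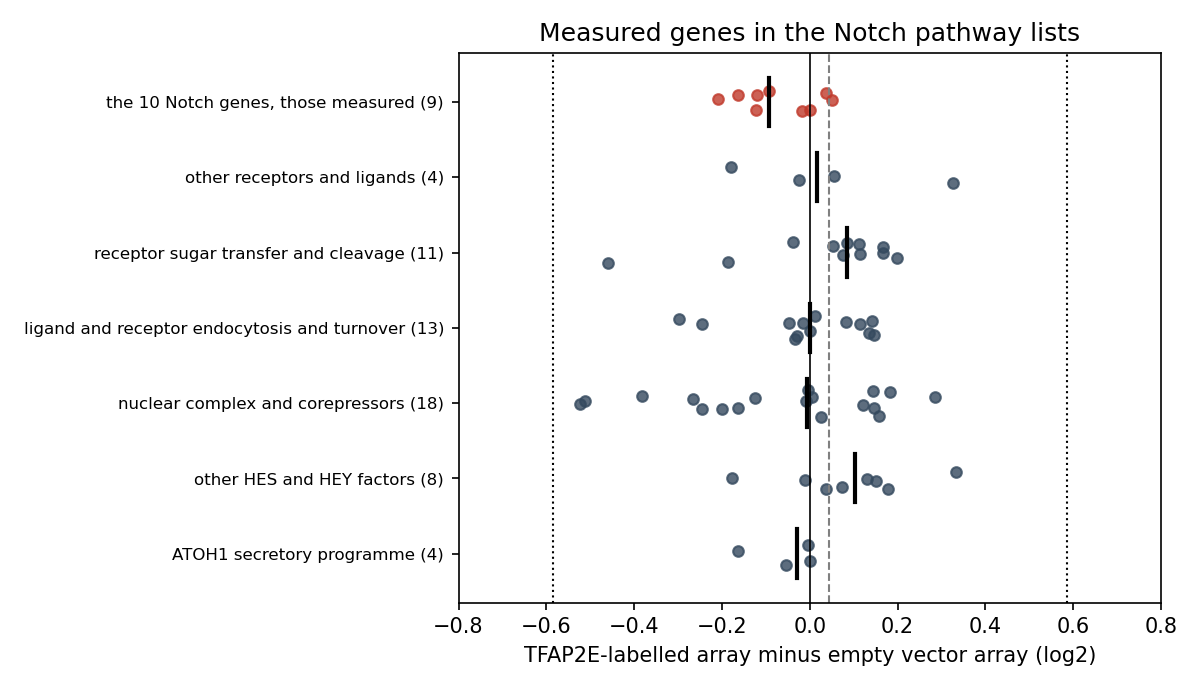
Log2 difference (horizontal axis) of each measured gene in the list of 10 Notch genes and in 6 lists of other pathway genes, 1 point per gene with the number measured in brackets, black bars for list medians and a dashed line for the median of all measured genes. All points lie inside the dotted lines at 1.5-fold, and the lowest are TLE2 and MAML2 at -0.52 and -0.51.

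The other HES and HEY factors all stayed within the range of genes of like level where measured. Of 8 measured factors 6 were higher and 2 lower, with a median of 0.10, beside 59.2% higher and a median of 0.04 over all measured genes. HES7, the oscillating repressor of the segmentation clock, read 7.22 against 6.89 (0.33, range -0.40 to 0.47), and HES2 differed by 0.18. HELT (-0.18) and HES3 (-0.01) were the lowest, and HELT was dim on the TFAP2E-labelled array, at 5.54. HEY1, named as the only factor of the list dim on both arrays, read 4.32 and 4.41. Of the endocytosis and turnover genes 6 of 13 were higher and 7 lower, with a median of 0.00. FBXW7, the ubiquitin ligase adaptor that marks the receptor fragment for destruction, read 5.69 against 5.99 (-0.30, range -0.43 to 0.42). NRARP, a Notch target that feeds back on the complex, read 7.41 against 7.65 (-0.24, range -0.41 to 0.44). Its sign was that of HES1, while HES4 read nearly alike on both arrays. The Deltex proteins DTX4 (0.15) and DTX3 (0.14) were highest.

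The remaining receptors and ligands gave 2 higher and 2 lower of 4 measured, with a median of 0.02. DLL3, a ligand-like protein that acts inside the cell, read 5.80 against 5.47 (0.33, range -0.42 to 0.53) and was dim on the empty vector array. DLK1 differed by 0.06, DLK2 by -0.02 and NOTCH4 by -0.18. The secretory genes that follow ATOH1 were mostly dim, 10 of the 14 on the array, including the goblet cell mucin MUC2 at 5.19 and 5.29, which was chosen for naming as a defining product. The 4 measured were INSM1, which read 6.41 on both arrays, SOX4 (0.00), GFI1 (-0.05) and BHLHA15 (-0.16). ATOH1 and most of its secretory programme were thus below the filter on both arrays, as were 6869 of all 18417 named genes.

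Each measured Notch gene was also set beside its chromosome neighbours, the 10 nearest measured genes on each side in the RefSeq gene order, or as many as the chromosome end allowed. Of the 9 measured Notch genes 8 had a lower difference than the median of their neighbours, and DLL1 had a higher one. The same 8 lay below the median of all measured genes, 0.04, so this is not a separate observation. The share of all measured genes that lie below their own neighbours was not computed. JAG1 stood furthest from its neighbours: their median was 0.15, 15 of 20 were higher, and JAG1 at -0.12 was below 19 of them. HES1 at -0.12 was below 17 of 20 neighbours, whose median was 0.06. For NOTCH1 the neighbours had a median of -0.03, with 7 higher and 12 lower, and 2 of the 20 had a lower difference than its -0.21. JAG2 likewise lay in a stretch with a median below 0 (-0.05, 9 higher and 11 lower). No direction of a neighbourhood was tested.

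The identity of the cells was checked with marker lists. Of all 18417 named genes 6869 were dim. Of 12 colorectal epithelial markers 9 were measured, with 3 higher and 6 lower and a median of -0.06. The 3 dim ones, named for that reason, were KRT20 (4.26 against 4.29), CDH17 (3.27 against 3.44) and GPA33 (4.41 against 4.84). EPCAM, an epithelial surface protein named as the defining marker, read 11.1 against 11.2. The microvillus protein VIL1 (1.28) and the lectin LGALS4 (0.22) had the highest differences, and CDH1, which encodes E-cadherin (-0.71), and the keratin KRT19 (-0.20) the lowest. Of these VIL1 was dim on the empty vector array, at 4.94. VIL1 and CDH1 lay outside the range of genes of like level, 2 of the 9 or 22.2%, against 5.39% of all measured genes. Vessel lining cells also use NOTCH4 and DLL4, and of 12 endothelial markers 9 were dim, the defining PECAM1, CDH5 and KDR among them. CLDN5 (-0.13), EGFL7 (-0.09) and ENG (0.00) were measured, and the summed log2 level of the 12 was 57.6 on the TFAP2E-labelled array against 57.2. Most of that sum comes from dim probe sets, and no direction is drawn from it. Of 10 fibroblast markers 8 were dim, with COL1A1 at 0.05 and COL1A2 at -0.09. COL1A2 was below the filter value on the TFAP2E-labelled array, at 5.47. Of 9 leukocyte markers 6 were dim, PTPRC among them, with CD68 at 0.57, NKG7 at 0.18 and CD14 at -0.19. CD68 alone of these lay outside its range of genes of like level, -0.37 to 0.50. CD14 was below the filter value on the TFAP2E-labelled array, at 5.46. Whether the differences of VIL1, CDH1 and CD68 bear on the Notch genes was not tested.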

How the data were processed

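The 2 arrays, 1 per group, were grouped by the expression label of each sample. Each array has 1 log2 value per probe set, which the authors deposited after RMA processing, as the submitters' processing notes state. For the RMA software, its version and the genome build, no source used here gives a name. The sorted values of both arrays were within 0.158 of each other throughout. Of 33297 probe sets, 19460 had 1 gene symbol in the platform annotation, 1754 had several and 12083 had none. Symbols were updated by Entrez identifier through a RefSeq gene table (GRCh38.p14), which held 19429 of them. Where a gene had several probe sets, that with the highest mean was used. Differences, ranges and motif matches were computed with Python 3.11.15, pandas 2.3.3 and numpy 2.4.6, and the loess trend (span 0.3) with statsmodels 0.14.6. The differences alone were run on simulated arrays with known changes of 1.5-fold or more, larger than that of any Notch gene. The ranges and motif matches were not checked in this way. With 1 array per group no p-value was computed.

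The 10 genes and all lists were chosen with earlier results of these data known. Named are the 10 genes, TFAP2E, the 2 highest and 2 lowest measured genes of each list and all measured genes of short marker lists; any other name is marked in the text. Genes with no probe set of their own in the annotation were not analysed here. Coordinates belong to the RefSeq sequences and not to the array.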

Additional observations from a re-analysis of the deposited data

How the results depend on the processing

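The results were recomputed under 8 alternatives: 3 scalings (quantile normalization, a loess trend taken out, medians centred), 3 filters (none, the 75th percentile, both arrays above the median), averaging over probe sets, and a floor at the 20th percentile. No Notch gene passed 1.5-fold under any of the 8. The 3 filters, the averaging and the floor left each Notch gene's difference as deposited, so only the 3 scalings moved a value. The median of the Notch genes, -0.09, lay between -0.12 (75th percentile filter, which leaves 6 genes) and -0.07 (centring), while that of all measured genes lay between 0.01 (loess) and 0.07 (centring). For single genes there were 50 recomputed differences, those left as deposited included. Each shifted from the deposited one by under 0.219, the standard deviation over measured genes. That allowance is larger than every difference of the set, the largest being -0.21 for NOTCH1, so it does not show that any is stable. NOTCH2 ranged from -0.05 to 0.03 and NOTCH3 from -0.04 to 0.01, so the sign of both depends on the scaling. The other 7 measured genes kept theirs, HES4 only narrowly, at 0.0009 with the loess trend taken out. A common change of all transcripts would not appear in RMA values. No paired analysis was possible because neither condition has a second sample.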
